A study of Mus musculus with 9 samples.

Results

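The 10 genes described here encode the enzymes that build triglyceride in the liver, namely Gpam, Agpat2, Agpat3, Lpin1, Lpin2, Lpin3, Mogat1, Mogat2, Dgat1 and Dgat2. They were taken by gene symbol from the deposited table, and all 10 were among its 17442 genes. A mean normalised read count of 10 or more over the livers was required for a test, which 12937 genes met, and 9 of the 10 did so, all but Mogat2. Livers came from male C57BL/6 mice, 5 labelled Msr1-/- and 4 wild type (Msr1+/+), 1 animal to a library. Both genotypes were kept on a high fat and high cholesterol feed over 16 weeks and carried the label NAFLD, so no lean liver stands beside them. Msr1 encodes macrophage scavenger receptor 1, which binds oxidised and acetylated lipoproteins, and the comparison asked how the liver on this diet differs in mice labelled as lacking it. The age of the mice and the construction of the Msr1 allele are not given in the sources used here.

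Triglyceride is assembled on glycerol 3-phosphate by the stepwise addition of fatty acyl groups in the endoplasmic reticulum and at the outer mitochondrial membrane. Glycerol 3-phosphate acyltransferases such as the Gpam product add the first acyl group and the AGPAT enzymes the next, giving phosphatidate, which the lipins dephosphorylate to diacylglycerol. The DGAT enzymes then add the last acyl group, and the MGAT enzymes of the Mogat genes reach the same diacylglycerol from monoacylglycerol. The lipins are phosphatases, so the set holds acyltransferases and 1 family of phosphatases. In fatty liver this pathway supplies the triglyceride of lipid droplets and of secreted lipoproteins.

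No tested member passed the limma threshold on the 9 livers (Benjamini-Hochberg adjusted p under 0.05 over the 12937 genes), a call that 1.37% of all tested genes met. Of the 9 members, 8 had a positive log2 difference (Msr1-/- minus wild type, on the log2(value + 1) scale) and Lpin3 a negative one. The median of the 9 was 0.28, against 0.02 over all tested genes, of which 52.7% were positive. An unadjusted limma p under 0.05 was met by 4 members, Agpat2, Agpat3, Lpin2 and Dgat2, and by 15.3% of all tested genes. On whole reads recovered from the table, edgeR called 0 members (1.43% of genes) and DESeq2 called 1, Lpin2 (5.98% of genes), each with 4 members at an unadjusted p under 0.05 (15.6% of genes in edgeR, 16.4% in DESeq2). Without wild type 3, a liver that stood apart from the rest, limma called 2 members, Mogat1 and Agpat3, both higher in Msr1-/- livers, where 4.91% of genes were called and 2.59% were called higher. An unadjusted p under 0.05 was then met by 6 members and by 21.5% of genes. With that liver left out edgeR called 1 member, Mogat1 (5.12% of genes), and DESeq2 called 3, Mogat1, Agpat3 and Agpat2 (8.26% of genes). The median of the 9 members in limma was 0.38, with 7 of 9 positive, against 0.0036 over the 12823 genes tested, of which 50.5% were positive.

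**Figure D1:**
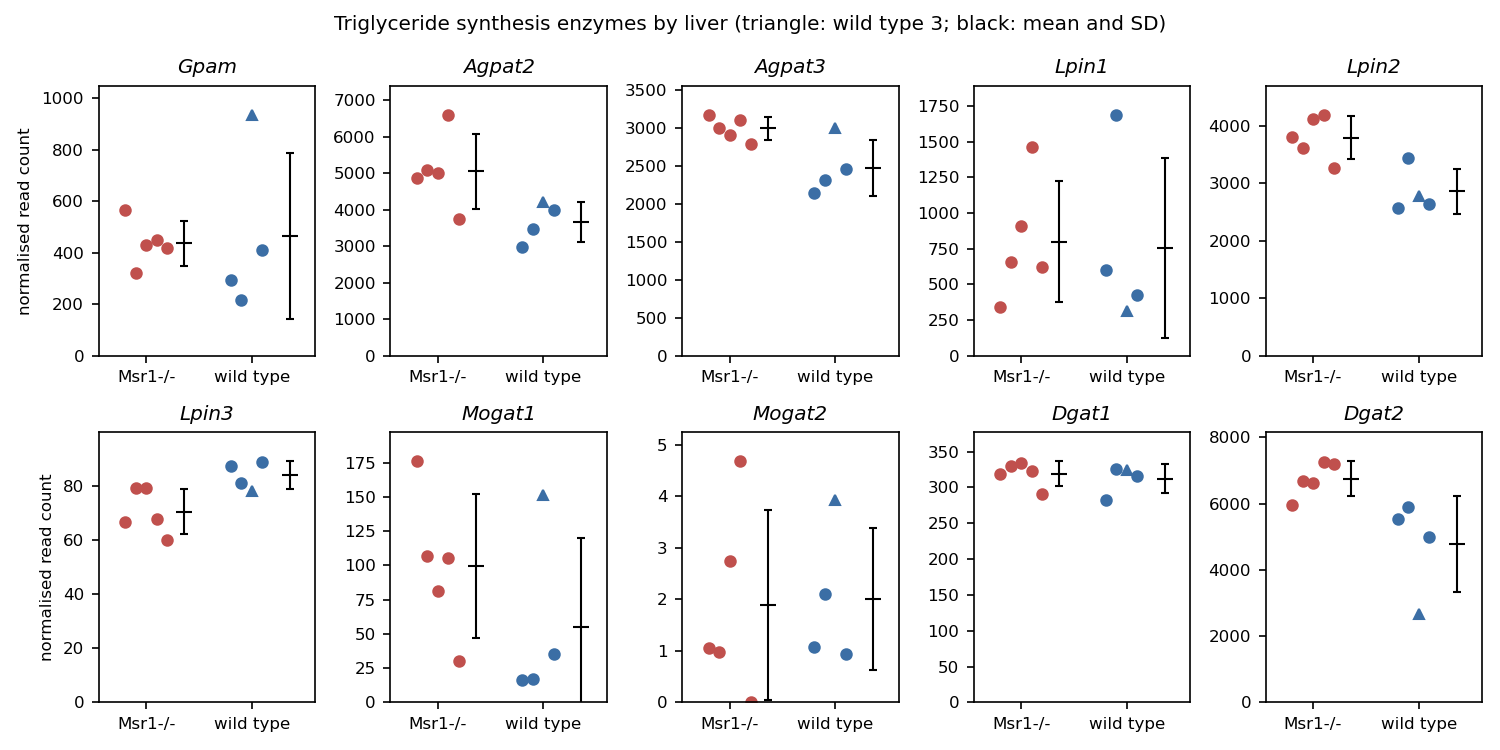
Normalised read count of each member in every liver, with 5 Msr1-/- livers at the left and 4 wild-type livers at the right of each panel. Black marks give the mean and SD, cut off at 0 where the SD reaches below it, and the triangle is wild type 3, which is the highest of the 9 livers for Gpam and the lowest for Dgat2 and Lpin1.

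The libraries held 15006773 to 18238932 reads. Msr1 reads were found in every liver, at 152.7 to 209.1 in Msr1-/- livers and 194.5 to 460.5 in wild type (limma adjusted p = 0.264), but a total per gene cannot tell intact from altered transcripts, so it does not check the genotype and each direction rests on the labels. Wild type 3 stood apart on the leading principal component (41.0% of the variance), with a score of -88.74 where the other 8 livers ranged from -8.30 to 27.61. The 8 hepatocyte markers were read in each liver, with none called, and summed to 1748114 to 2457579 in Msr1-/- livers, 1714806 to 2067244 in wild type 1, 2 and 4 and 1321261 in wild type 3. On 9 livers 2 of these 8 had negative log2 differences, and their median was 0.32, beside 0.28 for the 9 tested members. All 14 macrophage markers had negative log2 differences, and 1 of 14 was called (6 without wild type 3). Their summed level was 5634 to 7468 in Msr1-/- livers, 10222 to 12444 in wild type 1, 2 and 4, and 24842.5 in wild type 3, and no macrophage marker was at 0 in any liver. Stellate cell and fibroblast markers, 9 genes with none called, summed to 3649 to 4322 in Msr1-/- livers, to 3952 to 4654 in wild type 1, 2 and 4, and to 11195.5 in wild type 3. Of the adipocyte markers, Adipoq had 0 to 1.06 in Msr1-/- livers and 1.06 to 3.14 in wild type, while Cfd was called higher, at 59.1 to 465.4 in Msr1-/- livers and 9.5 to 65.5 in wild type. Plin1, Lep and Retn were not found by symbol in the deposited table, so Cfd was the only adipocyte marker tested. Of the cholangiocyte markers 1 of 3 tested was called lower, as was 1 of 7 lymphocyte markers, and none of the endothelial or erythroid markers was called. Without wild type 3 the lymphocyte count was 3 lower and the erythroid count 1 higher, with the endothelial and cholangiocyte counts as on 9 livers. Lymphocyte markers summed to 215.2 to 398.1 in Msr1-/- livers, 761.7 to 926.0 in wild type 1, 2 and 4 and 557.8 in wild type 3, without overlap. Cholangiocyte markers summed to 249.5 to 544.9 in Msr1-/- livers, 619.3 to 700.1 in wild type 1, 2 and 4 and 1675 in wild type 3, with Krt19 at 0 in at least 1 Msr1-/- liver. Most of this sum was Spp1, also a macrophage marker here, at 337.9 ± 101.9 in Msr1-/- and 802.4 ± 469.3 in wild-type livers. Krt19, Krt7 and Epcam overlapped between the genotypes, and Sox9 did not. The part of cell composition in the values below was not tested, and in whole tissue fewer cells of a type and less RNA per cell cannot be told apart.

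Members differed widely in level when counts were divided by annotated exon length. Agpat2 and Dgat2 were highest, at 2374 ± 479 and 2189 ± 171 normalised reads per kilobase of exon in Msr1-/- livers (SD, n = 5) and 1721 ± 257 and 1550 ± 473 in wild type (SD, n = 4). The ranges of these 2 genes overlapped in both genotypes, so their order is within the spread. Agpat3 followed at 384.2 ± 19.3 in Msr1-/- and 317.6 ± 47.4 in wild-type livers, and Lpin2 at 310.1 ± 30.9 and 233.8 ± 32.2 per kilobase in the same genotypes. Dgat1 (104.5 ± 5.6 in Msr1-/-, 102.1 ± 6.6 in wild type), Lpin1 (82.8 ± 43.6 in Msr1-/-, 78.3 ± 65.3 in wild type), Gpam (65.5 ± 13.0 in Msr1-/-, 69.7 ± 48.5 in wild type) and Mogat1 (64.1 ± 33.8 in Msr1-/-, 35.2 ± 41.7 in wild type) overlapped one another in level, except that Dgat1 (95.1 to 109.4) lay above Gpam (48.3 to 84.6) in all Msr1-/- livers. Lpin3 had the lowest mean of the tested members, at 19.1 ± 2.3 per kilobase in Msr1-/- and 22.8 ± 1.4 in wild-type livers. Its range (16.3 to 21.5) reached below that of Mogat1 (19.3 to 112.9) in Msr1-/- livers, and lay within that of Mogat1 in wild type. Mogat2, the main intestinal MGAT gene, was near the limit of detection at 1.03 ± 1.00 per kilobase in Msr1-/- and 1.10 ± 0.75 in wild-type livers. Among 16917 genes with an annotated length, Agpat2 stood at the 97.9th percentile of level per kilobase, Dgat1 at the 77.6th and Lpin3 at the 48.7th. Exon lengths are the union of all annotated exons, from 1558 bases for Mogat1 to 12233 for Lpin2, which lowers the level of a gene whose long transcripts are not used in liver.

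**Figure D2:**
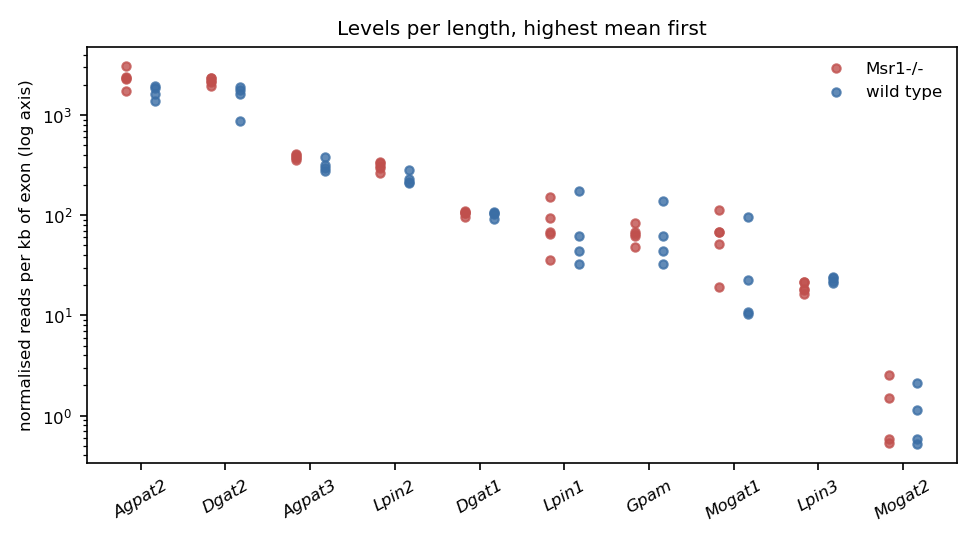
Normalised reads per kilobase of annotated exon for each member, 1 point a liver, on a log axis, with Msr1-/- livers left of wild-type livers and genes ordered by their mean over 9 livers. Agpat2 and Dgat2 lie highest and Mogat2 lowest, and the Mogat2 value of 0 in Msr1-/- 5 is not drawn.

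Upstream sequence was taken from RefSeq (GRCm38.p6) for 7 members, and not for Dgat1, Dgat2 and Mogat2. Gpam and Lpin3 have 2 start sites there and Lpin2 has 3. Shown are the 250 bases before the start of Mogat1, the member with the largest difference, of Agpat2 and Agpat3, the acyltransferases of the same step, and of Lpin1, the lipin with the widest spread. Each runs 5′ to 3′ on the gene's own strand, with matches to the searched motifs in capitals.
Mogat1, chr1:78510810-78511059, plus strand: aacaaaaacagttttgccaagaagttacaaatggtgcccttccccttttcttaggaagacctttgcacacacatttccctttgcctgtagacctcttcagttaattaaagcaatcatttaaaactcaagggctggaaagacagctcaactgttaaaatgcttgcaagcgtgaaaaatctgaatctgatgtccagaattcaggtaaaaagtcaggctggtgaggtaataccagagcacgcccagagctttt
Agpat2, chr2:26604418-26604667, minus strand: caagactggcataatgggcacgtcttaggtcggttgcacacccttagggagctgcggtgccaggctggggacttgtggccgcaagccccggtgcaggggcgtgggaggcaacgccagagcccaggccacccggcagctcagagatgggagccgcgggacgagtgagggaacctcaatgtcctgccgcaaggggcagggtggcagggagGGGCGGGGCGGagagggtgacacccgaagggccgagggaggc
Agpat3, chr10:78351701-78351950, minus strand: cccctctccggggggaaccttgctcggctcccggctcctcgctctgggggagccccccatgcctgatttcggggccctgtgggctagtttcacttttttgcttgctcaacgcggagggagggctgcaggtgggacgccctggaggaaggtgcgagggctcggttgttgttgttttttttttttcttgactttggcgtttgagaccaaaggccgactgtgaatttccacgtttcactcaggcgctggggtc
Lpin1, chr12:16610967-16611216, minus strand: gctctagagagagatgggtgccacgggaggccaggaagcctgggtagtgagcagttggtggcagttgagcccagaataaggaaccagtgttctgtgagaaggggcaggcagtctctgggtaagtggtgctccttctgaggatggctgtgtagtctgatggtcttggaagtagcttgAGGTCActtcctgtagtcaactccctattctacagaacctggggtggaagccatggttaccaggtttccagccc
The search covered both strands for the nuclear receptor half-site AGGTCA, a direct repeat of that half-site with 1 base between the copies (each repeat also counts as a half-site), the E-box CACGTG, the GC box GGGCGG, the CCAAT box CCAAT and the TATA box TATAAA. Lpin1 held 1 half-site, 74 bases before the start, where 14% of all 32851 promoter windows of this length hold at least 1. Agpat2 held 2 overlapping GC boxes at 42 and 37 bases before the start (32.7% of windows hold this motif). Mogat1 and Agpat3 held none of the 6 motifs in these windows, and the GC content was 41.2% for Mogat1, 69.2% for Agpat2, 59.6% for Agpat3 and 54.8% for Lpin1, against a median of 52.4% over all windows. Among the windows not printed, 1 start of Lpin2 held an E-box 9 bases upstream (6.02% of windows), 1 start of Gpam held a half-site 196 bases upstream, GC boxes were found at 2 starts of Lpin2 and 1 start each of Lpin3 and Gpam, the CCAAT box at 1 start each of Lpin2 and Gpam (33.8% of windows), and no member window held the direct repeat (0.0335% of windows) or a TATA box (12.4%). A match is a run of letters and not evidence of binding.

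Gpam encodes the mitochondrial glycerol 3-phosphate acyltransferase, which starts the pathway and is a textbook target of insulin and SREBP-1c. Its normalised counts were 563.8, 322.0, 430.1, 449.0 and 416.8 in Msr1-/- livers 1 to 5, and 295.1, 217.3, 934.3 and 411.7 in wild type 1 to 4. The genotypes overlapped, with wild type 3 above every other liver and wild type 1 and 2 below every Msr1-/- liver. The log2 difference was 0.12 ± 0.35 (SE, 95% interval -0.65 to 0.88, limma adjusted p = 0.927). Leaving out wild type 3 gave 0.53 ± 0.21 (0.07 to 0.98, limma adjusted p = 0.173), and without wild type 1 or 2 it was -0.03 or -0.17.

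Agpat2 encodes the acylglycerolphosphate acyltransferase whose loss causes lipodystrophy with fatty liver in humans and mice. Its counts were 4862, 5079.9, 5002, 6599.9 and 3738 in Msr1-/- livers 1 to 5, against 2979, 3489, 4206 and 3986 in wild type 1 to 4. Msr1-/- livers 1 to 4 stood above all wild-type livers, and Msr1-/- 5 lay among them. Agpat2 had a log2 difference of 0.45 ± 0.17 (95% interval 0.09 to 0.82), a 1.37-fold higher level, with a limma adjusted p of 0.215. Leaving out wild type 3 gave 0.52 (limma adjusted p = 0.100), and DESeq2 then called it (adjusted p = 0.0402). Agpat2 shares 64 bases of exon, 3.0% of its length, with Egfl7 on the opposite strand, a gene at 361.5 ± 52.1 in Msr1-/- and 406.4 ± 61.5 in wild-type livers.

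Agpat3 encodes a further lysophosphatidate acyltransferase of the endoplasmic reticulum and Golgi. Its counts were 3168, 3000.4, 2910.3, 3098 and 2787 in Msr1-/- livers 1 to 5, against 2138, 2310.5, 2992 and 2455 in wild type 1 to 4. Msr1-/- livers spread little (coefficient of variation 5.03%), and wild type 3 was the only wild-type liver inside their range. On 9 livers the log2 difference was 0.28 ± 0.12 (95% interval 0.03 to 0.54, limma adjusted p = 0.263). With wild type 3 left out the genotypes no longer overlapped, as for 14.2% of genes tested there, and Agpat3 was 1.30-fold higher in Msr1-/- livers (log2 difference 0.38 ± 0.10, limma adjusted p = 0.0499). That call stood just inside the threshold. With wild type 3 left out, edgeR gave Agpat3 an adjusted p of 0.0678 and DESeq2 gave 0.00414.

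Lpin1 encodes lipin 1, a phosphatidate phosphatase that also acts as a coactivator of PPAR alpha and PGC-1 alpha in liver and rises on fasting. Its counts were 345.5, 657.6, 907.7, 1464 and 625.2 in Msr1-/- livers 1 to 5, and 599.9, 1687, 313.8 and 425.0 in wild type 1 to 4. Both genotypes held high and low livers, with a 4.24-fold range among Msr1-/- and a 5.38-fold range among wild-type animals. The log2 difference was 0.24 ± 0.49, with a 95% interval from -0.84 to 1.32 (limma adjusted p = 0.884), an interval that covers both lower and higher levels in Msr1-/- livers. It was -0.08 with wild type 3 left out.

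Lpin2, the lipin with the most reads in these livers, had counts of 3799, 3607, 4110.2, 4189 and 3263 in Msr1-/- livers 1 to 5, against 2573, 3436, 2784 and 2646 in wild type 1 to 4. All Msr1-/- livers but the fifth exceeded every wild-type liver, and wild type 2 lay above Msr1-/- 5. Lpin2 had a log2 difference of 0.41 ± 0.12 (95% interval 0.14 to 0.68), a 1.33-fold higher level, and the smallest limma adjusted p of the members, 0.134. Of the members only Lpin2 was called by DESeq2 on 9 livers (adjusted p = 0.0370), while edgeR gave 0.152. The difference was 0.40 when wild type 3 was left out and was not called by limma (adjusted p = 0.103) or by DESeq2 (adjusted p = 0.0611).

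Lpin3, a lipin gene of low expression in liver, had counts of 66.8, 79.3, 79.4, 67.8 and 60.1 in Msr1-/- livers 1 to 5, against 87.7, 81.2, 78.4 and 89.2 in wild type 1 to 4. The values overlapped by a single liver, wild type 3, and this was the only tested member with a negative log2 difference on 9 livers. Lpin3 had a log2 difference of -0.25 ± 0.14 (95% interval -0.57 to 0.06, limma adjusted p = 0.455). It was -0.29 when wild type 3 was left out (limma adjusted p = 0.313).

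Per kilobase of exon, Lpin2 made up 76.0% ± 6.6 of the lipin counts in Msr1-/- livers and 71.7% ± 9.5 in wild type. Lpin1 made up 19.3% ± 7.1 in Msr1-/- and 21.1% ± 11.0 in wild-type livers, from 9.81% in Msr1-/- 1 to 36.6% in wild type 2. The Lpin3 share was 4.71% ± 0.72 in Msr1-/- and 7.16% ± 1.75 in wild-type livers, with wild type 2 (4.61%) inside the Msr1-/- range of 3.58% to 5.58%. These shares are given as a description with no test.

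**Figure D3:**
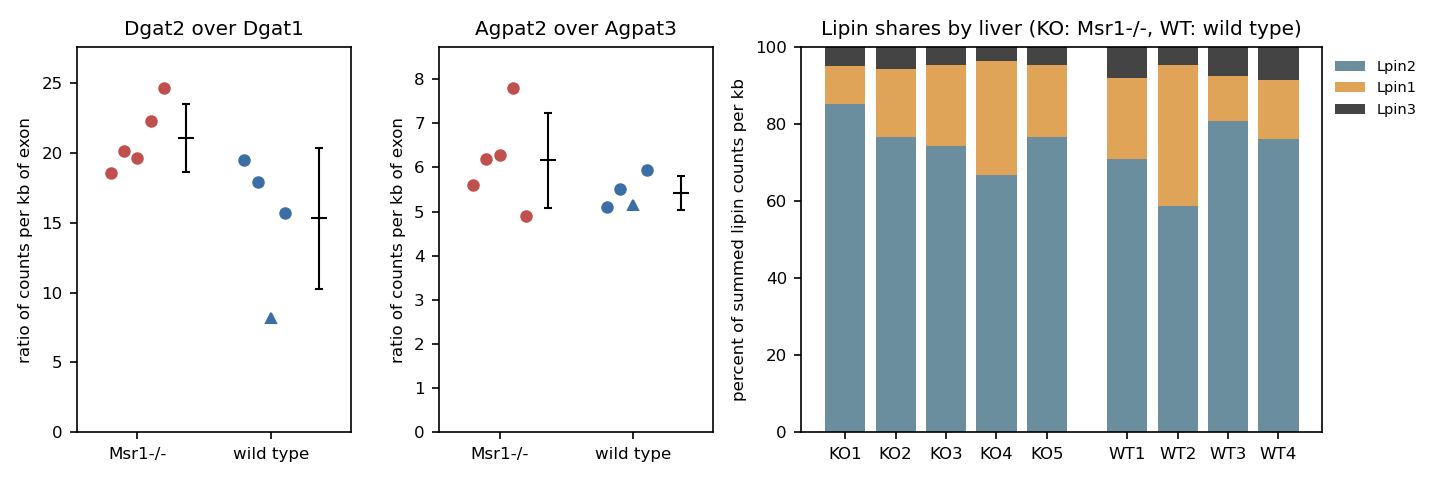
Ratio of Dgat2 to Dgat1 and of Agpat2 to Agpat3 per liver, and the share of each lipin in the summed lipin counts of each liver, all from normalised counts per kilobase of exon. Black marks are mean and SD, the triangle is wild type 3, which has the lowest Dgat2 to Dgat1 ratio (8.15), and Lpin2 is the largest lipin share in all 9 livers.

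Mogat1 encodes the monoacylglycerol acyltransferase that is low in normal mouse liver and induced in fatty liver, and is a known target of PPAR gamma. Its counts were 175.9, 106.7, 81.3, 105.2 and 30.1 in Msr1-/- livers 1 to 5, against 16.0, 16.9, 151.4 and 35.1 in wild type 1 to 4. Wild type 3 held more than every Msr1-/- liver but the first, and Msr1-/- 5 lay below wild type 4, so the genotypes overlapped with and without wild type 3. Over the 9 livers the log2 difference was 1.28 ± 0.65, with a 95% interval of -0.15 to 2.72 (limma adjusted p = 0.390). With wild type 3 left out, Mogat1 was 3.94-fold higher in Msr1-/- livers, at 99.8 ± 52.6 (SD, 5 livers) against 22.7 ± 10.8 in the 3 remaining wild-type livers. The log2 difference was then 1.98 ± 0.46 (0.96 to 2.99, limma adjusted p = 0.0334), with edgeR at an adjusted p of 0.0334 and DESeq2 at 0.00015. Mogat1 shares 200 bases of exon, 12.8% of its length, with BC035947 on the opposite strand, and the labels do not say whether counting used strand. BC035947 had 7, 9, 7, 4 and 1 reads in Msr1-/- livers 1 to 5 and 1, 1, 8 and 2 in wild type 1 to 4. Mogat1 had 30 to 166 reads in Msr1-/- and 15 to 193 in wild-type livers. Both genes were lowest in Msr1-/- 5 and wild type 1, 2 and 4, and whether they share reads was not tested.

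Mogat2 had 0 to 4 reads in each Msr1-/- liver and 1 to 5 in each wild-type liver, and was not tested. Its normalised counts were 1.06, 0.979, 2.74, 4.68 and 0 in Msr1-/- livers 1 to 5, and 1.07, 2.11, 3.92 and 0.949 in wild type 1 to 4. A difference between genotypes was not detectable at this depth.

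Dgat1 encodes the acyl-CoA:diacylglycerol acyltransferase of the membrane-bound O-acyltransferase family. Its counts were 319.0, 329.8, 334.2, 322.7 and 290.5 in Msr1-/- livers 1 to 5, and 282.3, 326.0, 324.0 and 315.9 in wild type 1 to 4. The genotypes overlapped almost fully and the spread was the smallest of the tested members, with an SD of 0.08 on the log2 scale over 9 livers. Dgat1 had a log2 difference of 0.03 ± 0.10, with a 95% interval of -0.19 to 0.26 (limma adjusted p = 0.927).

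Dgat2 belongs to another family, related to the Mogat enzymes, and is linked to the esterification of newly made fatty acids. Its counts were 5960.2, 6697, 6614, 7256 and 7212 in Msr1-/- livers 1 to 5, against 5549, 5898, 2663 and 5004 in wild type 1 to 4. All 5 Msr1-/- livers lay above all 4 wild-type livers, the lowest by a narrow margin over wild type 2, and wild type 3 stood far below the rest. Dgat2 was the only tested member whose genotypes did not overlap, as in 7.29% of all tested genes. The log2 difference was 0.56 ± 0.21 (95% interval 0.09 to 1.02), a 1.47-fold higher level (limma adjusted p = 0.229). Without wild type 3 it was smaller, 0.30 ± 0.11 or 1.23-fold (limma adjusted p = 0.149), and the genotypes still did not overlap. The ratio of Dgat2 to Dgat1 per kilobase was 21.0 ± 2.4 in Msr1-/- livers and 15.3 ± 5.0 in wild type, or 17.7 ± 1.9 without wild type 3, and wild type 1 (19.5) lay inside the Msr1-/- range of 18.5 to 24.6.

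**Figure D4:**
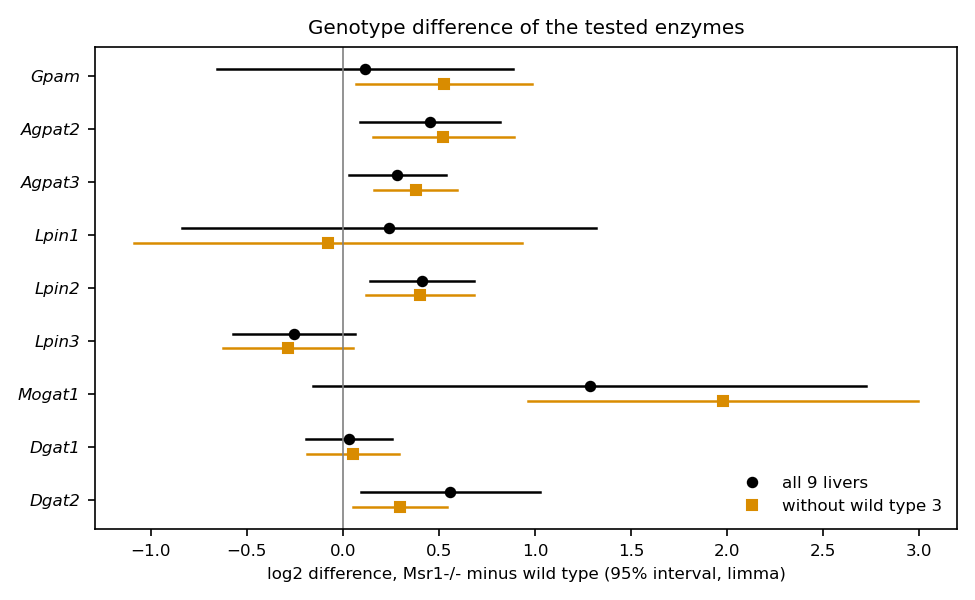
Log2 difference (Msr1-/- minus wild type) of the 9 tested members with its 95% interval by limma, from all 9 livers (black circles) and without wild type 3 (orange squares). Mogat1 goes to 1.98 from 1.28 without that liver and Dgat2 to 0.30 from 0.56, while Lpin2 and Lpin3 move little.

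The SD of log2 values among wild-type livers was smaller without wild type 3 for Gpam (0.46, against 0.90 with it), Agpat3 (0.10 against 0.21), Dgat2 (0.12 against 0.53) and Mogat1 (0.61 against 1.47). For Lpin1 it was 1.03 against 1.05, with wild type 2 far above the others, and for Lpin2 and Dgat1 it was larger without wild type 3. Wild type 3 was the highest of 9 livers for Gpam and the lowest for Lpin1 and Dgat2. For Mogat1 it ranked second of the 9. Leaving it out raised the log2 difference of Gpam to 0.53, against 0.12 with it, and lowered that of Dgat2. In Agpat2, Lpin2 and Dgat1 it stood within the range of the other 8 livers, as it did in Agpat3 and Lpin3.

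The profiles nearest to the most variable members were sought among the tested genes outside the members, as the smallest mean absolute difference of log2 values, each centred on its mean over the 9 livers. Genes with a symbol of Gm plus a number, or ending in Rik, were left out of the search and of its medians. For Mogat1 (SD 1.31 on the log2 scale over 9 livers) the nearest was Cd36, the fatty acid translocase gene and another known PPAR gamma target, at a mean absolute difference of 0.17, where the median over genes was 1.15. Cd36 had 3169.8, 2126, 1453, 1524 and 619.1 in Msr1-/- livers 1 to 5, against 363.6, 271.1, 3173 and 578.7 in wild type 1 to 4. It was high in Msr1-/- 1 and wild type 3 and low in wild type 1 and 2, as Mogat1 was. Slc16a5, a monocarboxylate transporter family gene, and Slc22a27, an organic anion transporter family gene, followed at 0.27 and 0.29. For Lpin1 (SD 0.85) the nearest were Zfp970, Olfr1372-ps1 and Aoc2, at 0.30, 0.31 and 0.32 with a median over genes of 0.70. No gene searched followed Lpin1 as closely as Cd36 followed Mogat1. Slc22a27 and Zfp970 belong to large families and Olfr1372-ps1 is a pseudogene, so which copy their reads came from is uncertain.

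**Figure D5:**
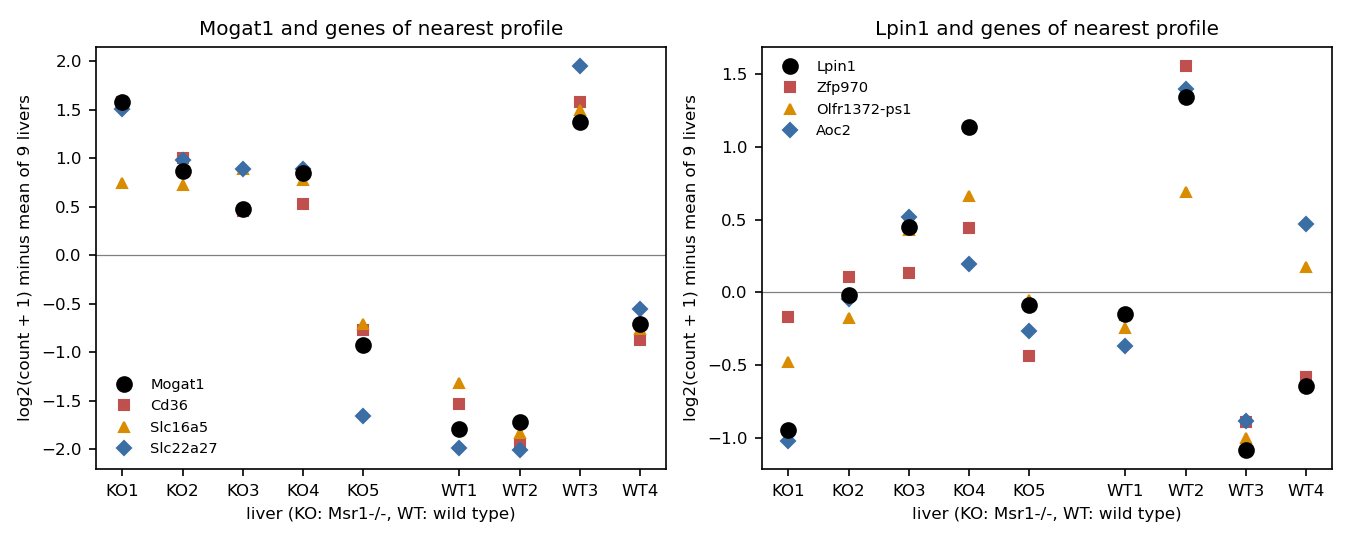
Log2(count + 1) of Mogat1 (left) and Lpin1 (right) with the 3 genes of nearest profile, each centred on its mean over the 9 livers, by liver. Cd36 runs closest to Mogat1, high in Msr1-/- 1 and wild type 3 and low in wild type 1 and 2, while Lpin1 exceeds its nearest genes in Msr1-/- 4.

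The other genes of glycerolipid synthesis were read off from the same fit, 52 genes in 7 lists with 48 tested. None passed the limma threshold (1.37% of all genes did). By unadjusted p under 0.05 in limma 7 of the 48 stood out, 14.6% of them against 15.3% of all tested genes. By adjusted p, edgeR called 0 (1.43% of all genes) and DESeq2 called 5 (5.98%). Only 4 of the 48, Aqp9, Plpp3, Soat1 and Ppara, had separate Msr1-/- and wild-type ranges on 9 livers, beside 7.29% of all tested genes. Without wild type 3 separate ranges were seen for 11 of the 48, beside 14.2% of genes tested there. Of the 48, 34 had a positive log2 difference on 9 livers, with a median of 0.18 against 0.02 over all tested genes. With wild type 3 left out, 29 were positive and the median was 0.080, against 0.0036 over all genes tested there. Limma then called 6 higher in Msr1-/- livers and 0 lower, where 4.91% of all genes were called and 2.59% were called higher, and these 6 are named after their values were seen. They were Gk, Gpd1, Chpt1, Plpp3, Pparg and Ppara.

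Among the genes of glycerol phosphate supply all 4 tested had a positive difference (median log2 difference 0.46, and 0.53 without wild type 3). Limma called 0 of them on 9 livers (1.37% of all genes) and 2 without wild type 3 (4.91%), and DESeq2 called 1 (5.98%) and 3 (8.26%). Aqp9, the channel through which hepatocytes take up glycerol, stood at 7759 ± 206 in Msr1-/- and 5799.6 ± 1002 in wild-type livers, without overlap (limma adjusted p = 0.139, DESeq2 adjusted p = 0.0333). Gk, glycerol kinase, stood at 1540.4 ± 307.4 in Msr1-/- and 1074 ± 364 in wild-type livers, with wild type 3 at 1589. Without that liver its log2 difference was 0.76 (limma adjusted p = 0.0241), against 0.56 on 9 livers (0.234). Gpd1, which makes glycerol 3-phosphate from dihydroxyacetone phosphate, had its highest value, 8569.8, in wild type 3. Its log2 difference was 0.76 without that liver (limma adjusted p = 0.0363), against 0.48 with it (0.430).

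Of 7 other glycerol phosphate and lysophosphatidate acyltransferase genes, 5 were positive with a median of 0.18, and 4 with a median of 0.20 without wild type 3. Limma called 0 with or without that liver, and DESeq2 called 0 on 9 livers and 1 without it, Agpat9 (8.26% of all genes). Agpat9, the older symbol of the glycerol phosphate acyltransferase gene Gpat3, stood at 121.6 ± 50.7 in Msr1-/- and 123.0 ± 144.0 in wild-type livers, with wild type 3 highest at 337.3. Its log2 difference was 0.51 on 9 livers (limma adjusted p = 0.763) and the level was 2.29-fold higher in Msr1-/- livers without wild type 3 (limma adjusted p = 0.0628, DESeq2 adjusted p = 0.00871). The smallest limma p belonged to Lclat1, at 632.8 ± 54.8 in Msr1-/- and 555.4 ± 50.7 in wild-type livers (adjusted p = 0.461). Of the 3 genes of the lipin-activating phosphatase complex and seipin, 2 were positive (median 0.01) and 0 called by limma, edgeR or DESeq2. Bscl2, which encodes seipin, a protein of lipid droplet formation, stood at 835.7 ± 64.6 in Msr1-/- and 692.8 ± 145.3 in wild-type livers (limma adjusted p = 0.373).

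The phospholipid branches, which draw on the same phosphatidate and diacylglycerol, had 12 of 17 tested genes positive (median 0.17), and 10 of 17 without wild type 3 (median 0.12). Limma called 0 on 9 livers (1.37% of all genes) and 2 without wild type 3 (4.91%), and DESeq2 called 2 (5.98%) and 3 (8.26%). Plpp3, a lipid phosphate phosphatase gene, stood at 1749 ± 229 in Msr1-/- and 1149 ± 255 in wild-type livers, without overlap (limma adjusted p = 0.0763, and 0.0429 without wild type 3; DESeq2 adjusted p = 0.0125 on 9 livers). Chpt1, choline phosphotransferase, which turns diacylglycerol into phosphatidylcholine, stood at 4569 ± 1299 in Msr1-/- and 2597 ± 519 in wild-type livers (limma adjusted p = 0.0893, and 0.0257 without wild type 3; DESeq2 adjusted p = 0.00983 on 9 livers). Among 5 tested diacylglycerol kinase genes 2 were positive and 0 called by limma, edgeR or DESeq2, the smallest limma p being that of Dgkz, at 472.9 ± 32.3 in Msr1-/- and 577.9 ± 103.7 in wild-type livers (limma adjusted p = 0.362). Of the 2 sterol acyltransferase genes, whose products are relatives of DGAT1 and make cholesteryl ester, 1 had a positive difference and limma called 0. Soat1, the form of macrophages, stood at 46.5 ± 7.5 in Msr1-/- and 97.9 ± 44.7 in wild-type livers without overlap (limma adjusted p = 0.0970, and 0.0690 without wild type 3; DESeq2 adjusted p = 0.0125 on 9 livers). Like the macrophage markers it was highest in wild type 3, at 161.6, and the part of macrophage content in it was not tested.

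Of 10 transcriptional regulators of the pathway, 8 were positive on 9 livers with a median of 0.36, and 5 without wild type 3 with a median of 0.12. Limma called 0 on 9 livers (1.37% of all genes) and 2 without wild type 3 (4.91%), and DESeq2 called 1 (5.98%) and 2 (8.26%). Ppara, the receptor that drives fatty acid oxidation, stood at 495.0 ± 102.6 in Msr1-/- and 320.8 ± 59.0 in wild-type livers, without overlap (limma adjusted p = 0.112, and 0.0375 without wild type 3; DESeq2 adjusted p = 0.0304 on 9 livers). Its lowest Msr1-/- liver, at 388.5, lay just above its highest wild-type liver, at 386.0. Pparg, which activates Mogat1 and Cd36, had 345.5, 249.5, 304.1, 207.0 and 154.3 in Msr1-/- livers 1 to 5, against 77.0, 139.3, 433.8 and 117.6 in wild type 1 to 4. Wild type 3 was the highest liver, and the other 3 wild-type livers lay below every Msr1-/- liver. The log2 difference of Pparg was 0.66 on 9 livers (limma adjusted p = 0.529) and 1.16 without wild type 3 (limma adjusted p = 0.0285).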

How the data were processed

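Per the labels, 9 liver RNA libraries were prepared by the TruSeq method. The submitters' processing notes list STAR, HTSeq, DESeq2 and mm10, and strand settings are not given in the sources used here. The authors deposited a signal per gene and liver, which are reads per gene scaled by 1 size factor for each liver. All values (100%) were whole multiples of 1 step per liver within 0.01 reads, so whole reads were recovered, 15006773 to 18238932 per liver. These depths cover counting error only.

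On the log2(value + 1) scale, every gene averaging at least 10 was tested with limma 3.58.1 (R 4.3.3, intensity trend, genotype as the only term). Alternatives used quasi-likelihood edgeR 4.0.16 and, on the same recovered reads, DESeq2 1.42.0, other pseudocounts, filters and scalings, array weights, a replicate block and each liver left out. The edgeR and DESeq2 fits without wild type 3 were added after seeing the data. The limma script was tested on simulated data. The labels give animal numbers but do not say that equal numbers share a litter or day, so each animal was taken as independent. The p values set the genotype difference against the spread between these animals. A litter or day shared within a genotype could not be told apart from the genotype.

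Members and gene lists were chosen with earlier results of these data known. Genes named are the members, Msr1, the pathway genes of smallest p in their list, those called by limma, or Agpat9 by DESeq2, without wild type 3 (chosen after their values were seen), the cell markers, and the 3 genes nearest in profile to the 2 members of largest SD. BC035947 and Egfl7 are named because they overlap a member. Exon lengths, found by symbol for 16917 genes, come from GENCODE M21 on GRCm38, which mm10 also uses, and promoters from RefSeq (GRCm38.p6). Counts of every pair of livers differed beyond sampling noise (chi-square over degrees of freedom at least 21.6), so each was used as its own animal.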

Additional observations from a re-analysis of the deposited data

Results flagged for a closer look

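Mogat1 in wild type 3, at a normalised count of 151.4, stood apart from the other 3 wild-type livers at 16.0, 16.9 and 35.1. Its gap to the nearest of them was 0.859 of the range of the group, above Dixon's 95% critical value for 4 samples. This check used normalised counts and not the log2 scale of the tests, so the flag holds for that scale only. Of 20 groups examined, the 10 members in each genotype, this was the only one past its critical value, and chance flags about 1 in 20.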

How the results depend on the processing

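The count of called members was 0 on 9 livers. It was 1 with DESeq2, 2 without wild type 3 by limma (0 without any other 1 liver), and 1 with edgeR and 3 with DESeq2 when wild type 3 was also left out. Called genes of the other pathway lists numbered 0 on 9 livers, 5 with DESeq2 (5.98% of all genes) and 4 with array weights (531 of 12937 genes). Without wild type 3 they numbered 5 with edgeR (5.12% of all genes) and 10 with DESeq2 (8.26%). With 1 liver left out they ranged from 0 to 6, with 6 without wild type 3 (4.91% of all genes) and 1 without wild type 1 (87 genes over the whole table). Agpat2, Agpat3, Lpin2, Lpin3, Dgat2 and Mogat1 kept their direction under the 21 alternatives run. The log2 difference of Gpam was -0.10 with edgeR and -0.097 with DESeq2, and ranged from -0.17 to 0.53 with 1 liver left out. That of Lpin1 was -0.19 with edgeR and -0.18 with DESeq2 without wild type 3, and ranged from -0.075 to 0.73 with 1 liver left out. That of Dgat1 ranged from -0.014 to 0.067 with 1 liver left out. The cause was not tested. Over the whole table, genes called numbered 177 in limma, 773 with DESeq2, 531 with array weights and 629 without wild type 3, and between 36 and 192 without any other 1 liver.

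Deviations of same-numbered animals correlated at 0.025, -0.077, -0.10 and 0.22. So few pairs cannot decide whether equal animal numbers share a litter or day, and pairing of the livers remains unknown. With the number as a replicate block (8 livers), 0 members and 10 genes in all were called, and the log2 difference of Mogat1 was 1.66. Of the 8 livers numbered 1 to 4, 2 correlated best with the liver of their own number.

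Mogat2 had at most 5 reads in a liver and was not tested, and the results of the 9 tested members rest on 4 wild-type and 5 Msr1-/- animals.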
